A study of Mus musculus with 6 samples.

Results

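The tripartite motif (TRIM) genes encode a large family of proteins that carry, in order from the N terminus, a RING finger, 1 or more B-box zinc fingers and a coiled coil, followed by a C-terminal region that differs between classes. TRIM genes were taken here as all genes whose symbol is Trim followed by a digit and which have a probeset of their own on the array. This gave 59 of 19933 named genes, 1 of them the pseudogene Trim30e-ps1, and each was measured by 1 probeset. A further 8 TRIM genes (Trim5, Trim17, Trim30b, Trim43a, Trim43b, Trim43c, Trim60 and Trim61) share their probesets with another gene and were not counted. The values are log2 expression levels of mRNA in NCU10K, an immortalized mouse neural crest cell line, 48 h after transfection with Nedd4 siRNA (3 arrays) or control siRNA (3 arrays). Each array holds 1 of 3 biological replicates of a culture, and both groups share the cell line, the medium with foetal calf serum and the transfection reagent. The methods describe a low GC control siRNA, and no rescue of Nedd4 was measured on the arrays, so effects of losing Nedd4 cannot be told apart from other effects of the Nedd4 siRNA.

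The RING finger lets most TRIM proteins act as E3 ubiquitin ligases, which pass ubiquitin from a conjugating (E2) enzyme to a substrate. NEDD4 is also an E3 ligase, but of the unrelated HECT type. TRIM proteins are best known for restricting viruses and tuning innate immune signalling, and others silence chromatin, bind microtubules or mark muscle proteins for breakdown. In the nervous system several of them act in axon growth and neuronal survival.

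Nedd4, the target of the siRNA, was at 10.45, 10.94 and 10.68 in the Nedd4 siRNA arrays, against 12.24, 12.35 and 12.34 in the control siRNA arrays (log2 fold change −1.62, SE 0.12, adjusted p = 3.16e-06, limma). Array medians lay between 6.28 and 6.35 and correlations between arrays of a group between 0.994 and 0.997. Of 10 measured markers of neural crest and Schwann cells, 9 had a mean signal above the median of all probesets (6.32), and Sox10, a transcription factor of the neural crest, averaged 10.64 with Nedd4 siRNA and 11.07 with control siRNA. In this list 2 markers rose and 5 fell (70% called, where 18.7% of all named genes and 33.4% of those above the signal median were). Of 11 leukocyte markers, 1 was above that median, and 0 passed limma's test or had an unadjusted p under 0.05. The summed linear signal of this list lay between 529.3 and 571.7 with Nedd4 siRNA and between 552.7 and 608.9 with control siRNA. Of 12 smooth muscle and fibroblast markers, 3 rose (Pdgfra, Dcn and Pdgfrb) and 0 fell, a share of 25%. The summed signal of that list did not overlap between groups, at 14060 to 15060 with Nedd4 siRNA and 11620 to 11980 with control siRNA. Postn, its brightest gene, weighs most in this sum, at 13.22 with Nedd4 siRNA and 12.98 with control siRNA. It did not pass limma's test (adjusted p = 0.081), nor did the smooth muscle genes Acta2, Tagln, Cnn1, Myh11 and Myl9. Of 12 neuron markers, 2 rose (Tubb3 and Map2) and 2 fell (Nefl, log2 fold change −1.19, and Nefm, −0.65), a share of 33.3%. These 4 were the only ones of the list above the signal median. The summed signal overlapped, at 1386 to 1517 with Nedd4 siRNA and 1461 to 1551 with control siRNA. As markers moved in both directions, the overlap of the sums does not mean that they stayed level. Of 12 muscle markers, 1 rose and 1 fell (16.7%), with overlapping sums of 3912 to 4069 with Nedd4 siRNA and 3841 to 3967 with control siRNA. The part of such shifts in the TRIM values was not tested, and in RNA of whole cultures a change in the mix of cells and a change of RNA within cells cannot be told apart.

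Of the 59 TRIM genes, 10 had a changed mRNA after Nedd4 knockdown (adjusted p under 0.05 over all probesets, limma). Of these, 7 were higher in Nedd4 siRNA cells, namely Trim7, Trim3, Trim6, Trim16, Trim41, Trim11 and Trim8. The other 3, Trim30a, Trim62 and Trim67, were lower. These 10 make up 16.9% of the family, where 18.7% of all named genes were called, 9.62% higher and 9.13% lower. The share of TRIM genes that changed was thus near that of all genes. The median log2 fold change was 0.01 over the TRIM genes and −0.02 over all named genes. Of the TRIM genes 30 had a positive and 29 a negative value, and of all named genes 9055 and 10878. On an absolute scale the median size of the change was 0.117 for TRIM genes and 0.113 for all genes.

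**Figure D1:**
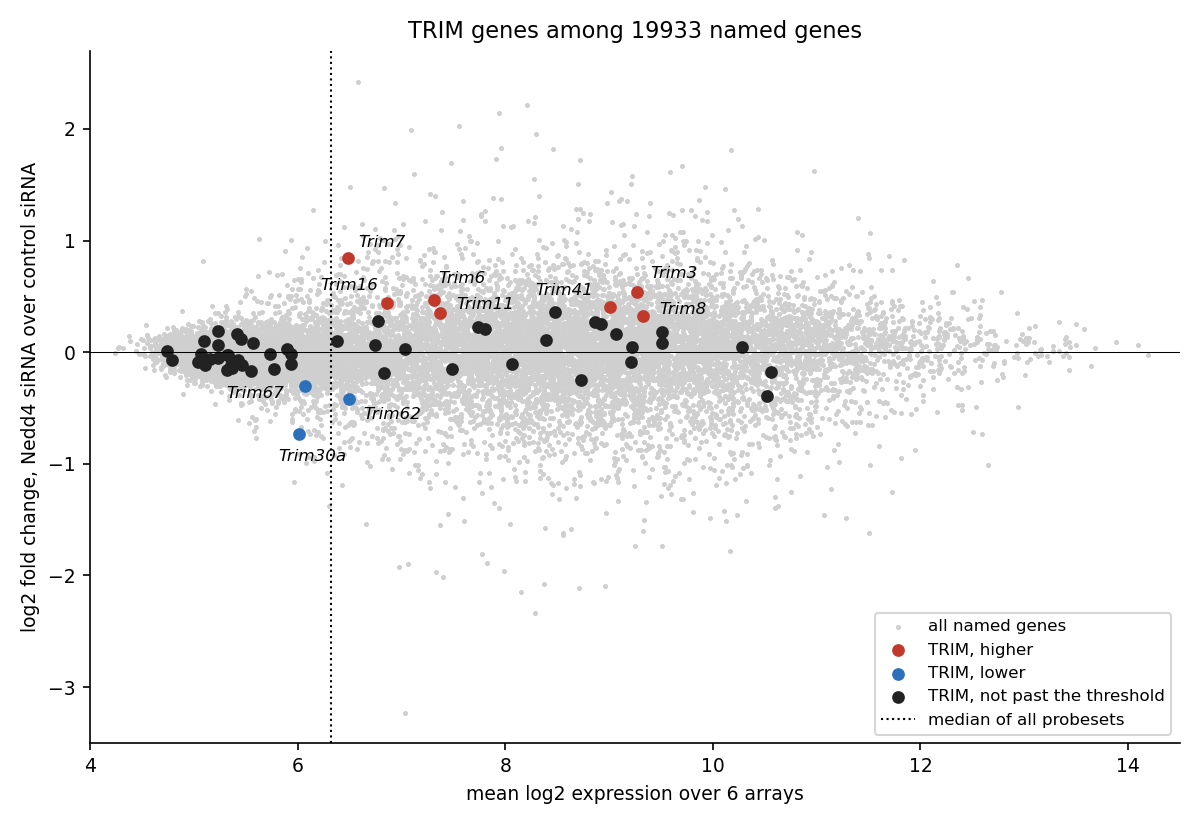
Log2 fold change with Nedd4 siRNA over that with control siRNA (vertical axis), plotted against the mean log2 expression over the 6 arrays (horizontal axis) for 19933 named genes (light grey) and 59 TRIM genes (red, higher; blue, lower; black, not past the threshold). The dotted line is the median of all probesets (6.32), and the TRIM genes run from −0.74 for Trim30a to 0.85 for Trim7.

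Calls were more frequent among brighter probesets. Of the 30 TRIM genes with a mean above the median of all probesets, 8 were called (26.7%, where 33.4% of all such genes were). Of these 8, 7 were higher and 1 lower, and over all 10319 such genes 1796 were higher and 1650 lower. Among the 29 TRIM genes that did not lie above this median, 2 were called (6.90%, where 3.03% of all such genes were), and these were Trim30a and Trim67. The log2 fold change was positive for 22 of the 30 brighter TRIM genes and for 5510 of all 10319 brighter genes. It was positive for 8 of the 29 dimmer TRIM genes and for 3545 of all 9614 dimmer genes. A dim probeset can reflect a transcript that is scarce or absent in the cells.

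The largest rise was that of Trim7, which encodes a ligase first found as a partner of glycogenin, the protein that starts glycogen particles. Trim7 (probeset 10375503) was at 6.93, 6.94 and 6.84 in the Nedd4 siRNA arrays, against 5.93, 6.15 and 6.09 in the control siRNA arrays. The groups lay far apart relative to their spread, and the level was 1.80-fold higher (log2 fold change 0.85, SE 0.091, adjusted p = 5.27e-05). Trim41, the gene next to Trim7 on chromosome 11 with no other protein-coding gene between them, also rose. It was at 9.25, 9.25 and 9.13 with Nedd4 siRNA, against 8.73, 8.98 and 8.71 with control siRNA (0.40, SE 0.098, adjusted p = 0.0127). TRIM41 is a ligase that binds protein kinase C. Since these neighbours moved in the same direction, the stretches of 250 bases before their start sites are shown (GRCm38.p6, RefSeq), with GC boxes (GGGCGG on either strand) in capitals. For Trim7 the window shown is the downstream of a pair of annotated starts, chr11:48837221-48837470 on the plus strand, and for Trim41 it is chr11:48817392-48817641 on the minus strand.
Trim7: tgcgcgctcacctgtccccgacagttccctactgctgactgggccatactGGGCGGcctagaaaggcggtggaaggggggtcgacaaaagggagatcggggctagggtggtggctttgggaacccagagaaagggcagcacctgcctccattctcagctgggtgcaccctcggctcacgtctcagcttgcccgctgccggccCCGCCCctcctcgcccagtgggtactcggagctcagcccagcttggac
Trim41: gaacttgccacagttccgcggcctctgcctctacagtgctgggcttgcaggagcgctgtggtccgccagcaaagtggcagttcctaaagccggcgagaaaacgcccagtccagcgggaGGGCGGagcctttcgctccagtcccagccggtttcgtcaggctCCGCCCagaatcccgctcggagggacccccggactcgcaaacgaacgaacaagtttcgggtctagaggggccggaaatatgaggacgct
Each stretch holds 2 GC boxes, at a GC content of 66.0% for Trim7 and 63.2% for Trim41. The upstream start of Trim7 has none, at a GC content of 53.6%. The motif was found in the promoter windows of 24 of the 46 TRIM genes with a RefSeq window (52.2%) and in 38.2% of 27025 genes. A match is a description of the letters and not a measured binding site.

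The next rises were smaller. Trim3, an NHL repeat protein of the brain that binds myosin V, was at 9.68, 9.57 and 9.37 in the Nedd4 siRNA arrays, against 9.03, 9.17 and 8.81 in the control siRNA arrays. Its groups did not overlap (log2 fold change 0.54, SE 0.11, adjusted p = 0.00561), but the methods' t-test, which uses each gene's own variance alone, gave an adjusted p of 0.12. That test called 9.05% of all named genes and 6 TRIM genes. Trim16, which lacks a RING finger and takes part in the removal of damaged lysosomes, was at 7.22, 6.98 and 7.04 with Nedd4 siRNA. Its control siRNA arrays were tight, at 6.62, 6.66 and 6.63 (0.44, SE 0.091, adjusted p = 0.00476). Trim16 passed limma's test without any given array and also the methods' t-test (adjusted p = 0.0499), as did Trim7 (adjusted p = 0.0188).

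Trim6, a ligase that makes unanchored ubiquitin chains in the antiviral response, was at 7.70, 7.61 and 7.34 in the Nedd4 siRNA arrays, against 6.89, 7.09 and 7.27 in the control siRNA arrays. The gap between the groups was narrow, with Nedd4 siRNA replicate 3 close to control siRNA replicate 3 (log2 fold change 0.47, SE 0.12, adjusted p = 0.0175). Trim11, which helps to clear misfolded proteins, was at 7.64, 7.62 and 7.36 with Nedd4 siRNA, against 7.08, 7.29 and 7.20 with control siRNA (0.35, SE 0.10, adjusted p = 0.0346). Here too Nedd4 siRNA replicate 3 was the lowest of its group. Trim8, a regulator of p53 and of NF-κB signalling, was at 9.61, 9.43 and 9.41 with Nedd4 siRNA, against 9.25, 9.14 and 9.10 with control siRNA (0.32, SE 0.093, adjusted p = 0.0329). None of Trim41 (adjusted p = 0.101), Trim6 (0.192), Trim11 (0.172) and Trim8 (0.106) passed the methods' t-test.

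**Figure D2:**
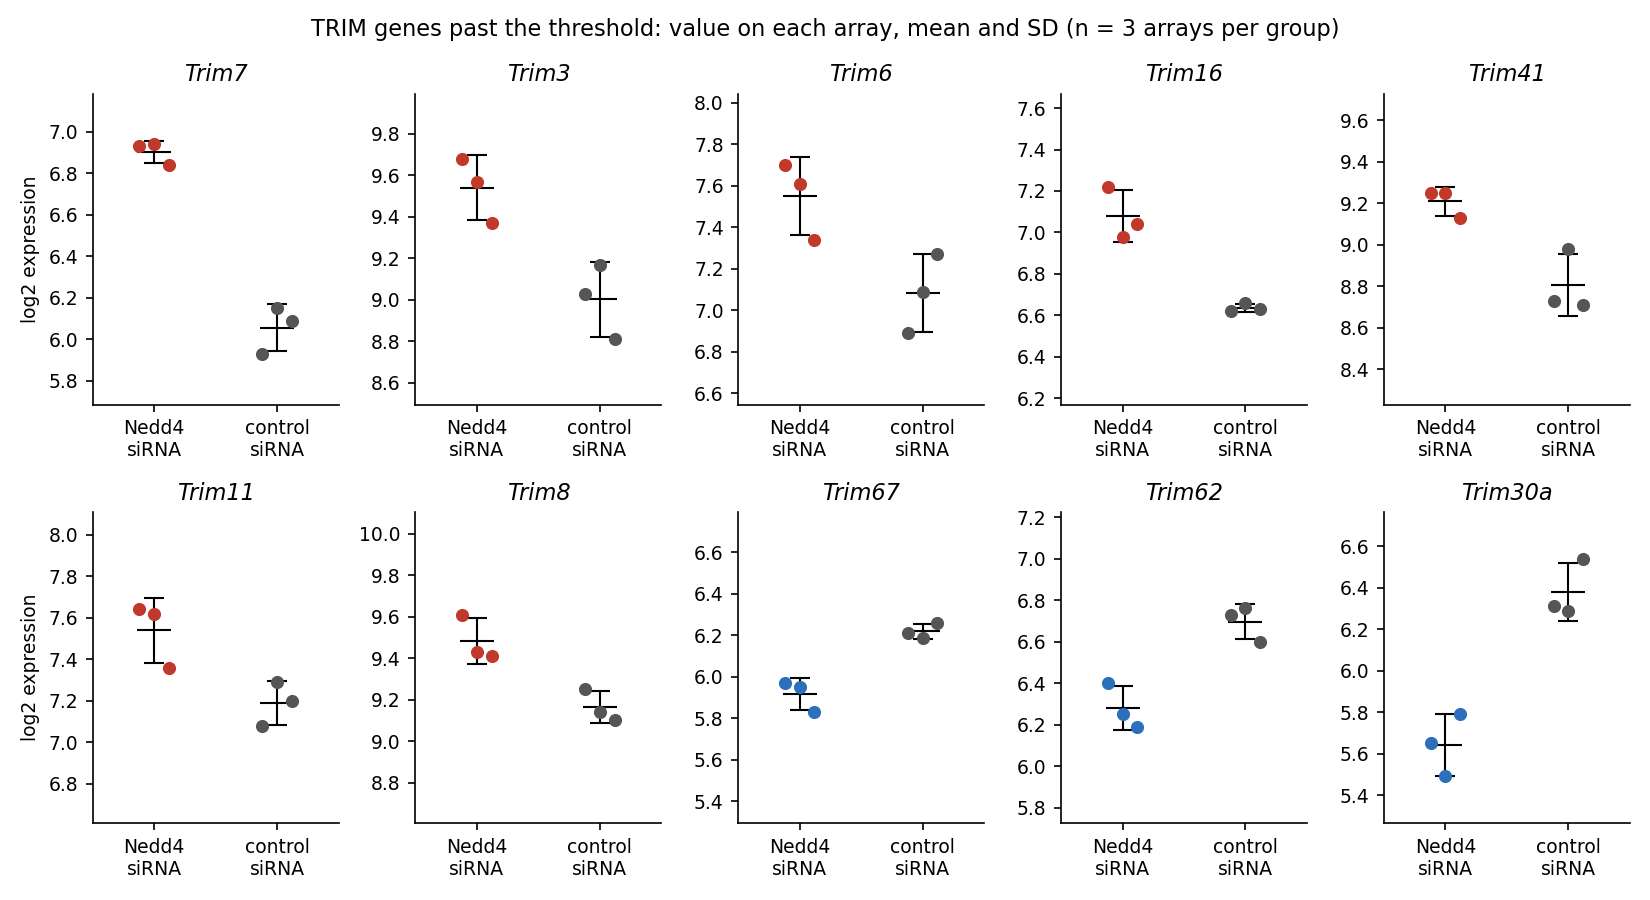
Log2 expression (vertical axes, each spanning the same log2 range) of the 10 TRIM genes past the threshold on each of the 3 Nedd4 siRNA arrays (left, coloured) and 3 control siRNA arrays (right, grey), with the mean and SD of each group. The groups overlap for none of these genes, and the gap is widest for Trim7 and Trim30a.

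Trim30a showed the largest fall. It is known in mouse macrophages as an interferon-induced gene whose product dampens Toll-like receptor signalling. Trim30a (probeset 10566358) was at 5.65, 5.49 and 5.79 in the Nedd4 siRNA arrays, against 6.31, 6.29 and 6.54 in the control siRNA arrays. The 3 arrays of each group were well apart, and the level was 1.67-fold lower with Nedd4 siRNA (log2 fold change −0.74, SE 0.11, adjusted p = 0.00041; methods' t-test, 0.0471). Its mean signal lies below the median of all probesets, so it is not tested when the dimmest 50% of probesets are left out. Without the dimmest 25% it passed (adjusted p = 0.000493). Trim30a has close copies beside it on chromosome 7, and cross-hybridization between them was not tested. The probeset of Trim30d, the gene next to it, averaged 4.74 with Nedd4 siRNA and 4.73 with control siRNA (log2 fold change 0.01, SE 0.093, adjusted p = 0.974). The probeset shared by Trim30b and the gene Gm38525 averaged 5.13 with Nedd4 siRNA and 5.18 with control siRNA (−0.05, SE 0.096, adjusted p = 0.832). Both probesets lie in the dimmest 25% (mean signal below 5.47), where a change is hard to see. They thus cannot show whether these copies stayed level.

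Because Trim30a is classed as an interferon-induced gene, its promoter is shown with the interferon-response type motif, GAAA repeated after any 2 bases and searched on both strands, in capitals. The stretch is the 250 bases before the first of its annotated starts, chr7:104465194-104465443 on the minus strand (GRCm38.p6, RefSeq).
Trim30a: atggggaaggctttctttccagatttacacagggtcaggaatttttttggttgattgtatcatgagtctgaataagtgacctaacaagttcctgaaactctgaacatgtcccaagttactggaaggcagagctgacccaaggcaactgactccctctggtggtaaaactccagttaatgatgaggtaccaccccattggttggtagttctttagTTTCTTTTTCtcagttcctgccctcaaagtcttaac
The motif lies on the opposite strand, with its first base 36 bases before the start. It occurred in the windows, 250 bases before to 50 after a start, of 8 of the 46 TRIM genes with one (17.4%) and of 3.99% of 27025 genes. These 8 were Trim2, Trim12a, Trim12c, Trim21, Trim26, Trim30a, Trim30d and Trim34a, and 5 of them are neighbours in the Trim cluster of chromosome 7, so they are not independent of each other. Matches that lie before the start are set side by side here, 30 bases each, to show how alike the copies are. For Trim26, the first of an overlapping pair is shown.
Trim30a: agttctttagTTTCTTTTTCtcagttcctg
Trim30d: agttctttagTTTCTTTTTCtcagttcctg
Trim12c: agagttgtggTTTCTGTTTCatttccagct
Trim26: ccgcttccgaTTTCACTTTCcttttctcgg
These stretches are chr7:104465210-104465239, chr7:104507871-104507900 and chr7:104353359-104353388 on the minus strand and chr17:36836976-36837005 on the plus strand (GRCm38.p6). Trim30a and Trim30d carry the same 30 letters. Of the 8 genes with the motif, 1 passed the test, Trim30a itself. This is 12.5%, against 18.7% of all named genes. Trim12c was at 7.87, 7.93 and 8.23 with Nedd4 siRNA, against 8.44, 8.21 and 7.71 with control siRNA, the widest within-group spread of the family, and its groups overlapped (−0.11, SE 0.16). Trim21, the cytosolic Fc receptor that targets antibody-coated virus, averaged 6.73 with Nedd4 siRNA and 6.92 with control siRNA (−0.19, SE 0.11, adjusted p = 0.342).

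Trim62 and Trim67 also fell. Trim62, a regulator of epithelial cell polarity, was at 6.40, 6.25 and 6.19 in the Nedd4 siRNA arrays, against 6.73, 6.76 and 6.60 in the control siRNA arrays (log2 fold change −0.42, SE 0.093, adjusted p = 0.00775). Its adjusted p was 0.0653 under the methods' t-test. Trim67, a mainly neuronal protein that binds the netrin receptor DCC, was at 5.97, 5.95 and 5.83 with Nedd4 siRNA, against 6.21, 6.19 and 6.26 with control siRNA (−0.30, SE 0.086, adjusted p = 0.0291; methods' t-test, 0.0467). Both groups of Trim67 lie below the median of all probesets, and the difference was the smallest among the 10 genes.

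The TRIM genes were sorted by their C-terminal domains. Of 30 measured genes with a PRY-SPRY domain, a fold that recognises other proteins, 5 were higher (Trim7, Trim6, Trim16, Trim41 and Trim11), 2 lower (Trim30a and Trim62) and 23 did not pass. The share called was 23.3%, near the 18.7% of all named genes. The class median was 0.04 on the log2 fold change scale. Since this class holds most of the family, its 7 calls were not set against the other classes by a test. Among the 4 NHL repeat genes, 1 rose, and the log2 fold changes of all 4 were positive. Next to Trim3 they were 0.21 for Trim2, a ligase for neurofilament light chain (95% interval −0.01 to 0.42), 0.11 for Trim32, mutated in a human limb-girdle muscular dystrophy (−0.17 to 0.38), and 0.03 for the let-7 target Trim71 (−0.19 to 0.25).
The 4 PHD and bromodomain genes, which encode chromatin regulators, did not pass limma's test, and 1 of them had an unadjusted p under 0.05. Trim24, a co-regulator of nuclear receptors, was at 8.61, 8.58 and 8.63 with Nedd4 siRNA, against 8.87, 8.81 and 8.88 with control siRNA. Its arrays were tight and the groups apart, yet it narrowly missed limma's threshold (−0.25, SE 0.083, adjusted p = 0.0645), while it passed the methods' t-test (adjusted p = 0.0242). Trim28, the corepressor that KRAB zinc finger proteins recruit to silence chromatin, was at 10.25, 10.39 and 10.28 with Nedd4 siRNA, against 10.22, 10.48 and 10.09 with control siRNA. The groups overlapped, and the 95% interval of the log2 fold change ran from −0.19 to 0.28. Trim33, a partner of Smad proteins, had a log2 fold change of −0.18 (−0.37 to 0.01) and Trim66 of −0.11 (−0.30 to 0.09).
In the COS box class, whose members bind microtubules, Trim67 fell and the 3 others did not pass. Trim9, its closest relative, had a log2 fold change of −0.02 (95% interval −0.24 to 0.20). The 3 muscle RING finger genes, Trim54, Trim55 and Trim63, lay below the median of all probesets and between −0.11 and −0.02. Of the 7 genes with no named C-terminal domain 1 rose, Trim8. Trim37, with a MATH domain and a role at centrosomes, had a log2 fold change of −0.09 (adjusted p = 0.773). Those of Trim42 (0.16, adjusted p = 0.275) and Trim45 (−0.17, adjusted p = 0.311) did not pass either.

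**Figure D3:**
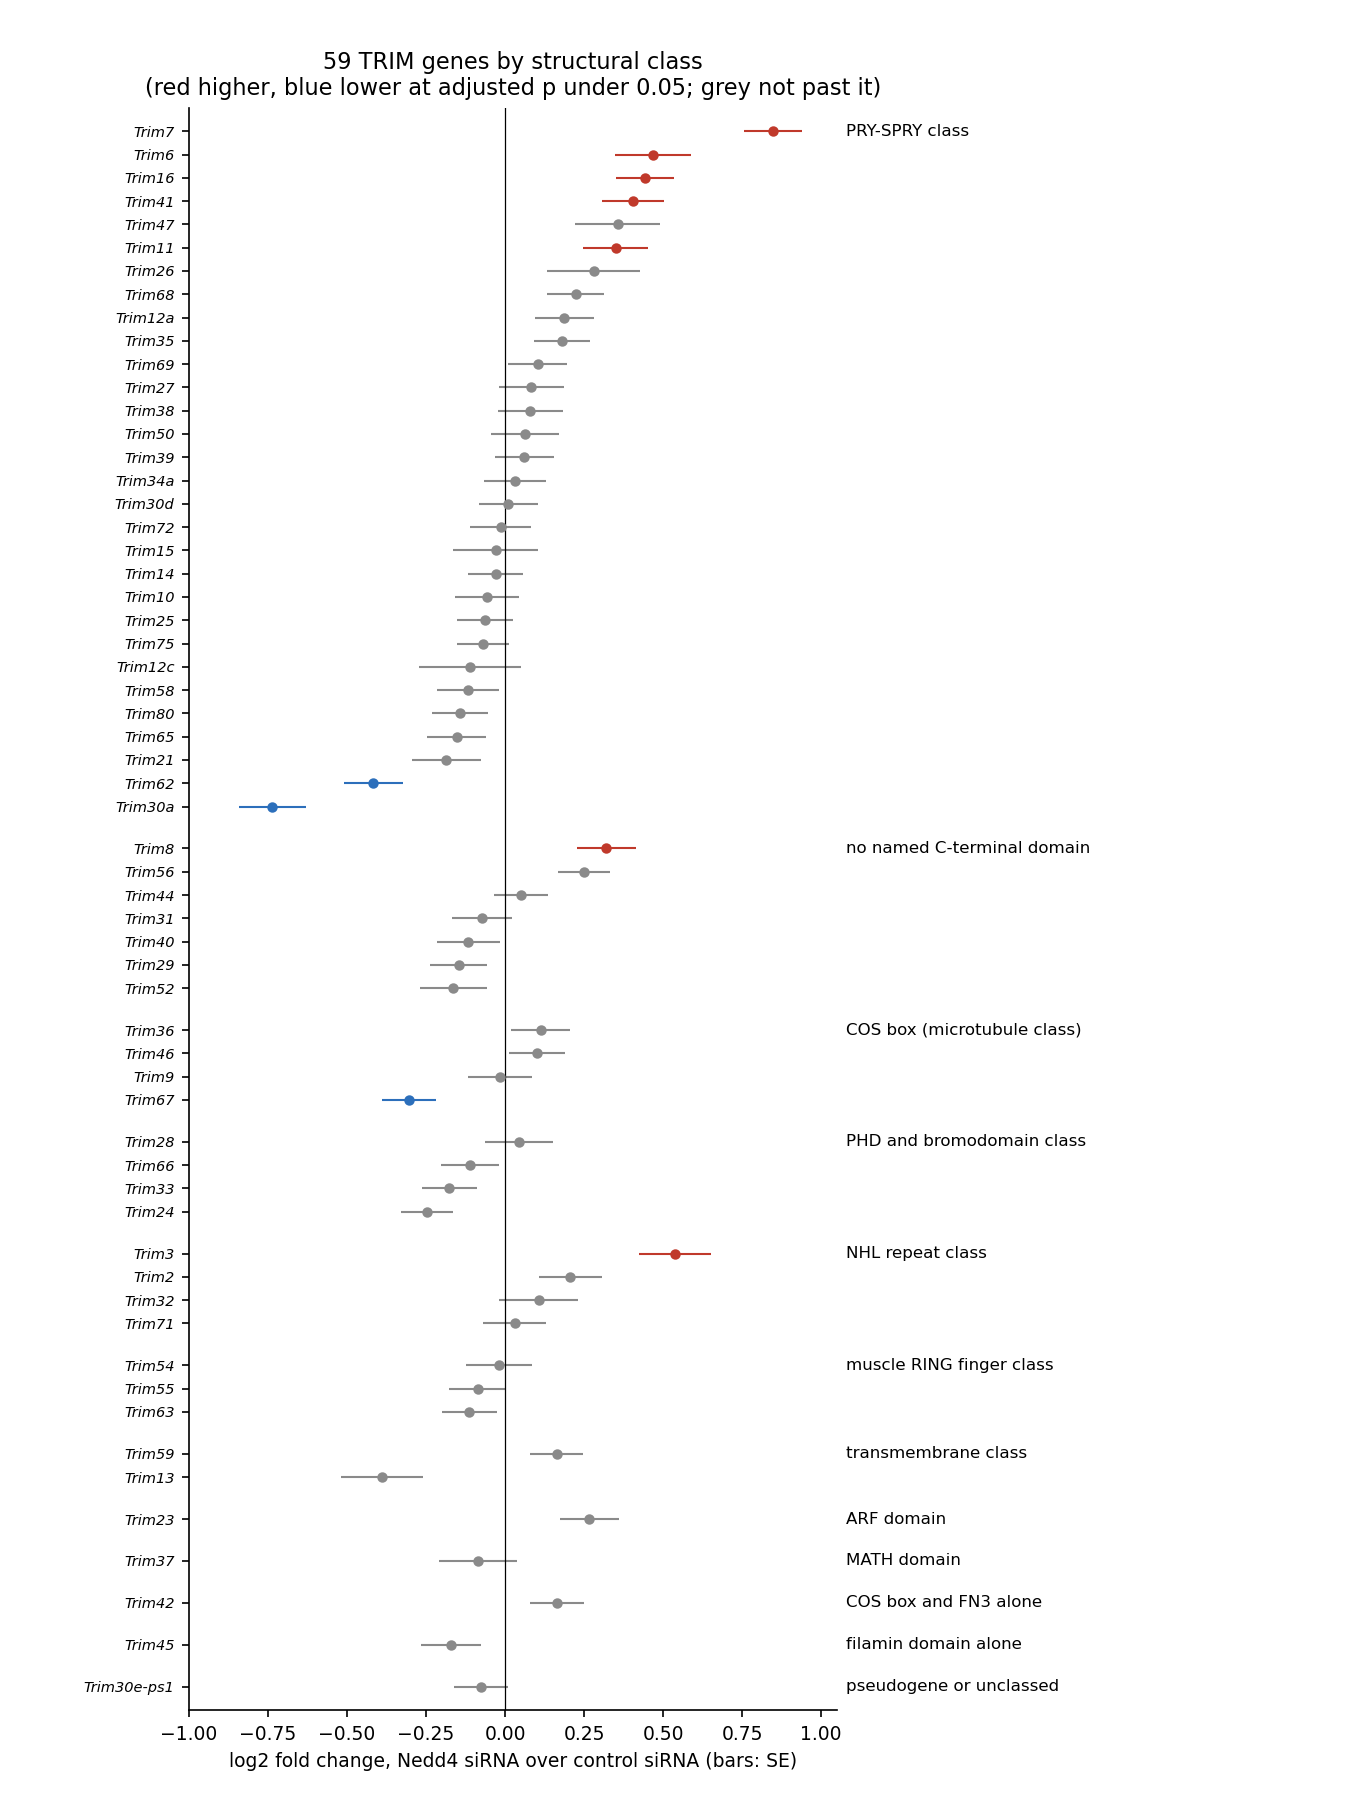
Log2 fold change, Nedd4 siRNA over control siRNA (horizontal axis), of each of the 59 TRIM genes, grouped by C-terminal domain, with points for limma estimates and bars for their SE (red, higher; blue, lower; grey, not past the threshold). The 7 red and 3 blue points run from 0.85 for Trim7 to −0.74 for Trim30a, and 7 of these 10 are in the PRY-SPRY class.

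Of the 49 TRIM genes that did not pass, 46 had a 95% interval within a log2 change of 0.5 in either direction. So did 47 of all 59 TRIM genes and 15481 of the 19933 named genes. Of the 49, 22 lay above the signal median, and for these a narrow interval bounds the change in signal. On a dim probeset a narrow interval can reflect low signal, so it does not exclude a larger change of the transcript. The groups did not overlap for 20 of the 59 genes, 13 higher and 7 lower, and for 31.7% of all named genes, 16.1% higher and 15.6% lower. Trim56, which acts in DNA and RNA sensing, was the closest to the threshold. It was at 9.04, 9.09 and 9.02 with Nedd4 siRNA, against 8.80, 8.82 and 8.78 with control siRNA. The arrays of each group lay close together and the groups did not overlap (log2 fold change 0.25, SE 0.082, adjusted p = 0.06; methods' t-test, 0.021). Trim13, an endoplasmic reticulum ligase of protein quality control, was at 10.34, 10.24 and 10.40 with Nedd4 siRNA, against 10.53, 10.56 and 11.06 with control siRNA. Control siRNA replicate 3 stood above the rest, and the log2 fold change was −0.39 (SE 0.13, adjusted p = 0.0641) with it and −0.22 (adjusted p = 0.193) without it. It passed without control siRNA replicate 1 (adjusted p = 0.0348) or 2 (0.0491).
Trim47 was at 8.68, 8.72 and 8.58 with Nedd4 siRNA, against 8.32, 8.61 and 7.98 with control siRNA. Here control siRNA replicate 3 was the lowest, and the log2 fold change of 0.36 (SE 0.13, adjusted p = 0.103) was 0.20 without it (adjusted p = 0.355) and 0.51 without control siRNA replicate 2 (adjusted p = 0.0128). Trim23, a ligase with an ARF GTPase domain, was at 9.03, 9.02 and 8.93 with Nedd4 siRNA, against 8.69, 8.86 and 8.63 with control siRNA (0.27, SE 0.092, adjusted p = 0.073, and 0.0355 without control siRNA replicate 2). Trim68 was at 7.92, 7.90 and 7.71 with Nedd4 siRNA, against 7.59, 7.62 and 7.65 with control siRNA (0.22, SE 0.090, adjusted p = 0.132).

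On chromosome 11, which carries 10 of the TRIM genes measured, 4 rose (Trim7, Trim41, Trim11 and Trim16) and 0 fell, where 9.21% of all named genes of that chromosome were higher and 9.72% lower. Chromosome 7 carries 13, of which Trim3 and Trim6 rose and Trim30a fell, where 5.94% of all named genes there were higher and 8.54% lower. In its cluster of neighbouring TRIM genes the direction differed between genes. Trim6 at the edge of the cluster was higher, Trim34a beside it had a log2 fold change of 0.03 (adjusted p = 0.917), and Trim30a further along was lower. On chromosome 17, 0 of the 6 TRIM genes measured passed limma's test or had an unadjusted p under 0.05, where 7.80% of all named genes there were higher and 9.72% lower. Among these 6, Trim10, Trim15, Trim31 and Trim40 were not above the signal median, where 3.03% of all genes were called.

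The 10 calls differed in how far they rested on single arrays. Trim7, Trim30a, Trim16, Trim3 and Trim62 passed limma's test whichever of the 6 arrays was left out. Trim41 did not pass without Nedd4 siRNA replicate 1 (adjusted p = 0.0685) or control siRNA replicate 3 (0.0532). Trim6 did not pass without Nedd4 siRNA replicate 1 (0.101), Nedd4 siRNA replicate 2 (0.0522) or control siRNA replicate 1 (0.067). Trim11 did not pass without Nedd4 siRNA replicate 1 (0.174) or 2 (0.112), nor without control siRNA replicate 1 (0.112) or 3 (0.08). Trim8 did not pass without Nedd4 siRNA replicate 1 (0.196) or 2 (0.0507), nor without control siRNA replicate 2 (0.0767) or 3 (0.101). Trim67 passed only without control siRNA replicate 2 (0.0476) and otherwise reached 0.0546 to 0.131. The direction of all 10 stayed the same in each of these fits. The number of TRIM genes called was 5 without Nedd4 siRNA replicate 1 and 6 without Nedd4 siRNA replicate 2 or control siRNA replicate 3. Calls also became fewer over all named genes, from 3737 to 2418, 3303 and 3172 in these fits.

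**Figure D4:**
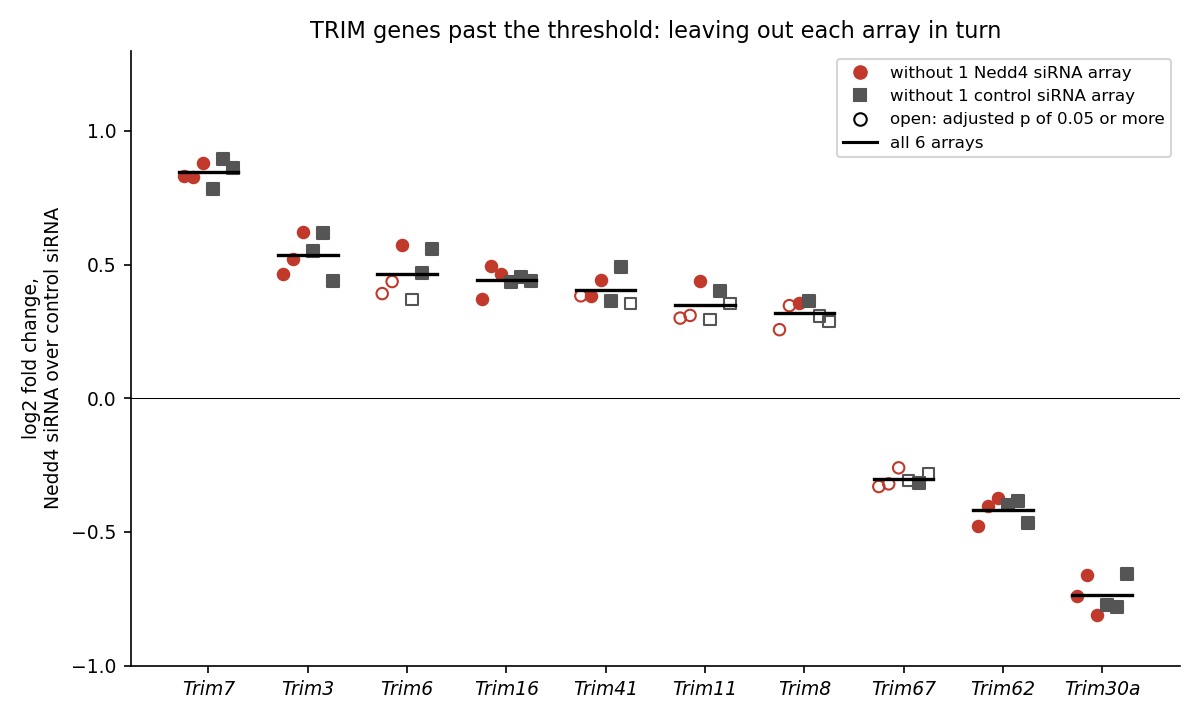
Log2 fold change (vertical axis) of the 10 TRIM genes past the threshold, estimated with all 6 arrays (black lines) and with each array left out in turn (red circles, a Nedd4 siRNA array left out; grey squares, a control siRNA array left out). Filled symbols have an adjusted p under 0.05 and open ones do not, and the symbols of Trim7, Trim3, Trim16, Trim62 and Trim30a are all filled.

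Genes that work with TRIM proteins, or are related to them, were called at a share near that of all genes. Over 85 genes in 5 lists, 10 were higher and 9 lower (11.8% and 10.6%), where 9.62% and 9.13% of all named genes were. The share called in either direction was 22.4%, against 18.7% of all named genes, and 61 of the 85 lay above the signal median, where 33.4% of all genes were called. Among 23 genes of RNA and DNA sensing and interferon signalling, in which several TRIM ligases act, 4 were higher, 1 lower and 18 did not pass (median log2 fold change 0.03). The share called was 21.7%, where 18.7% of all named genes were. Of these 23 genes 18 lay above the signal median, where the share over all genes was 33.4%. Sting1, the adaptor of cytosolic DNA sensing, was at 8.50, 8.57 and 8.22 with Nedd4 siRNA, against 9.55, 9.51 and 9.59 with control siRNA, a difference of −1.12 by limma (SE 0.10, adjusted p = 1.60e-05). The kinase Tbk1 that it activates (0.73, SE 0.083, adjusted p = 7.42e-05), the receptor-bound kinase Tyk2 (0.83, SE 0.11, adjusted p = 0.000187) and the interferon receptor chain Ifnar1 (0.55, SE 0.086, adjusted p = 0.000756) rose. Ddx58, the RNA sensor RIG-I, rose too (0.29, SE 0.086, adjusted p = 0.0382), while Trim25, the ligase known to activate it, averaged 5.12 with Nedd4 siRNA and 5.18 with control siRNA (−0.06, 95% interval −0.26 to 0.13) on a dim probeset.
Of 26 interferon-induced genes, 2 were higher, 3 lower and 21 did not pass (median −0.07), so that 19.2% were called, where 18.7% of all named genes were. Ifit3 (−0.90, SE 0.089, adjusted p = 3.02e-05) and the chemokine gene Cxcl10 (−0.92, SE 0.13, adjusted p = 0.0004) fell beside Trim30a. Ifi35 (0.82, SE 0.11, adjusted p = 0.000338) and the peptide transporter gene Tap1 (0.36, SE 0.090, adjusted p = 0.0143) rose.
Among 20 partners of Trim28 in KRAB zinc finger repression, 3 were higher and 4 lower (median 0.02). Of these 20 genes 19 lay above the signal median, and the share called, 35%, was near the 33.4% of all genes above it. The deacetylase gene Hdac1 (0.99, SE 0.089, adjusted p = 1.50e-05), the heterochromatin protein gene Cbx1 (0.55, SE 0.086, adjusted p = 0.000729) and the remodeller gene Smarcad1 (0.39, SE 0.082, adjusted p = 0.0059) rose. The DNA methyltransferase gene Dnmt1 fell (−0.56, SE 0.095, adjusted p = 0.0013), as did Setdb1, the histone methyltransferase that Trim28 recruits (−0.29, SE 0.084, adjusted p = 0.0342).
Of 12 E2 enzymes that supply TRIM ligases with ubiquitin, Ube2d1 rose (0.42, SE 0.11, adjusted p = 0.0203) and Ube2n fell (−0.35, SE 0.085, adjusted p = 0.0134). The remaining 10 stayed on the other side of the threshold (16.7% called, where 18.7% of all named genes were). Of these 12 genes 11 lay above the signal median, where the share over all genes was 33.4%. Cross-hybridization with related gene copies was not tested for the genes of these lists. None of 6 relatives of the TRIM genes under other names passed limma's test, and 1 had an unadjusted p under 0.05, the microtubule-binding ligase gene Mid1 (−0.22, SE 0.093, adjusted p = 0.147). For Mefv, which encodes pyrin, the difference was −0.19 on the log2 scale (SE 0.090, adjusted p = 0.215).

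**Figure D5:**
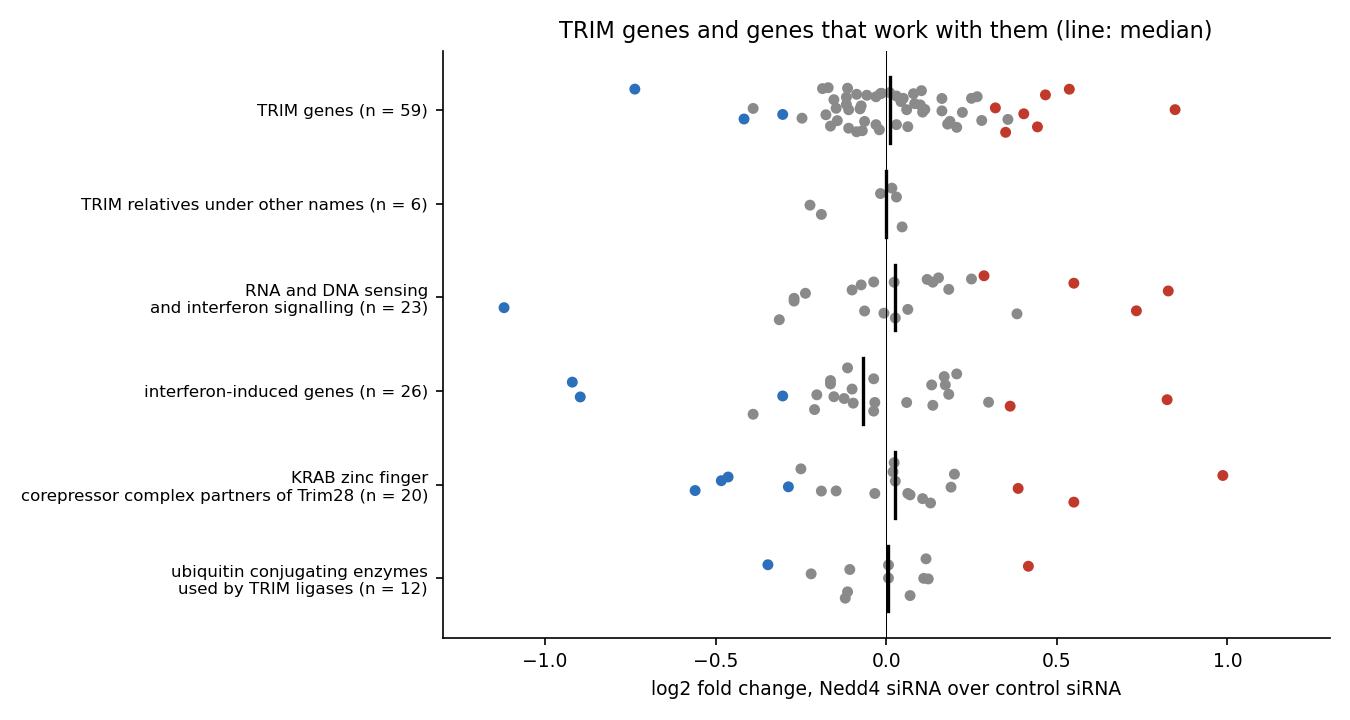
Log2 fold change, Nedd4 siRNA over control siRNA (horizontal axis), of the 59 TRIM genes and of the genes of 5 lists of partners and relatives, each point 1 gene (red, higher; blue, lower; grey, not past the threshold), with a black line at the median of each list. The medians lie between −0.07 for interferon-induced genes and 0.03 for the sensing list.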

How the data were processed

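Total RNA (300 ng) of each culture was hybridized to 1 Affymetrix Gene 1.0 ST mouse array. The deposited log2 values of 28440 probesets were made by the authors with Partek software, whose version is 6.5 according to the submitters' processing notes. Background was corrected by RMA, probes were corrected for GC content, and the probes of a probeset were averaged, so that a change in 1 transcript variant is averaged with the others. The genome build is not given in the sources used here. No further normalization was applied. The platform annotation pairs 21780 probesets with 1 symbol and 1618 with more, and leaves 5042 unnamed. For a gene with several probesets of its own, as genes of the other lists can have, the probeset with the highest mean was used. Whether a chosen probeset also detects related copies, such as pseudogenes, was not tested. All 59 TRIM symbols matched RefSeq (GRCm38.p6) by gene ID, and 46 have a promoter window there.

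Nedd4 siRNA was compared with control siRNA by limma 3.58.1 under R 4.3.3 (lmFit, eBayes, no covariate, Benjamini-Hochberg adjustment over all probesets, threshold 0.05), and the fit was tested on simulated data. The methods name an ANOVA, which was run as an alternative. Whether replicates of the cultures share a day is not stated. The p-values weigh the difference between groups against the spread within groups, which limma moderates with the spread of all probesets. The number of arrays, 6, limits the precision. Python 3.11.15 with NumPy 2.4.6, pandas 2.3.3, SciPy 1.17.1 and Matplotlib 3.10.9 was used for counts and figures. Named with values were all TRIM genes past the threshold, the 6 next by p, the leading member of each class without a call, up to 4 per other list, and Nedd4. Other members of small classes, Trim12c, Trim21, Trim25, Trim30d, Trim34a, Sox10, Ddx58 and Setdb1 were chosen after their values were seen. Members and lists were chosen with earlier results of these data known. Classes and lists come from general knowledge of the family. Further alternatives changed the variance model (trend and robust, array weights, a replicate block), the scaling (quantile, median centring), the probesets kept (without the dimmest 25%, without the dimmest 50%, those with 1 symbol, averages per gene, no near-identical TRIM clusters) or the threshold (0.01, or a minimum log2 change of 0.5). Each array was also left out in turn.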

Additional observations from a re-analysis of the deposited data

How the results depend on the processing

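The number of TRIM genes called was 10 by limma and lay between 9 and 15 under trend and robust, array weights, quantile normalization, median centring, both filters on dim probesets, the mean of a gene's probesets, only probesets with 1 gene symbol and without the near-identical clusters. The 15 came from array weights, a fit that leans on Nedd4 siRNA replicate 1 (weight 3.86, where the other arrays had 0.65 to 0.92). The number of TRIM genes called was 6 by the methods' t-test and 5 to 12 when an array was left out. It was 5 at an adjusted p under 0.01 and 3 with a log2 fold change of at least 0.5. For this stricter threshold and this minimum change the share of all named genes is not given here, so those counts have no baseline. Over all 19933 named genes the count was 3737 by limma and 2418 to 3490 when an array was left out. Of the alternatives listed first, those with a fit of their own gave 3600 to 4626. The PRY-SPRY class had 7 called genes, 3 by the methods' t-test and 4 to 8 when an array was left out. The lists of partners and relatives had 19 called genes, 12 by the methods' t-test and 13 to 17 when an array was left out. Over all named genes the methods' t-test called 9.05%. It shared 4 TRIM genes with limma and added Trim24 and Trim56. The cause was not tested. Trim11 did not pass with trend and robust (adjusted p = 0.0538), and Trim30a and Trim67 are not tested when the dimmest 50% are left out.

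Nedd4 kept its direction and call under all alternatives run for it, at −1.76 to −1.50. No alternative reversed a TRIM gene that passed. With the replicate block 13 TRIM genes were called, the 10 and Trim13, Trim26 and Trim47. Deviations of same-numbered arrays correlated at −0.01, 0.47 and −0.01, so the numbers were not taken to pair the arrays, and not every array correlated best with its own number.

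The scans were not used here, so signal over background was not assessed, which limits statements on the 29 TRIM genes that are not above the median of all probesets.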
